A study of Mus musculus with 12 samples.

Results

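Rhob and Gem were described beside 7 related small GTPase genes, Rhoa, Rhoc, Rhog, Rhoh, Rac1, Rac2 and Cdc42, in sorted mouse brain myeloid cells. The 9 genes were picked by symbol from the 31053 genes of the count matrices, and every one of the 9 was found once. Rhob and Gem belong to a consensus list of genes that the study called higher in ENZ-NONE on these same samples, and the 7 relatives were set beside them as steadily expressed ones, so the levels of the 9 genes across preparations are a description and carry no test.

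The 12 libraries each came from the whole brain of 1 male mouse of the inbred C57BL/6J strain, aged 90 days (P90). Per the labels, 6 brains were dissociated by cold Dounce homogenization and 6 by enzymatic digestion, which the study's methods carry out warm. Within each method, 3 preparations held a cocktail of inhibitors and 3 did not, which gives 4 groups of n = 3, named DNC-INHIB and DNC-NONE for Dounce, and ENZ-INHIB and ENZ-NONE for enzymes. The cocktail, per the methods, combines actinomycin D and triptolide, which block transcription, with anisomycin, which blocks translation. The labels name no engineered allele, and all cells were sorted as live CD45+/CD11b+ cells, so only cells that kept both surface proteins were sequenced.

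The counts are UMIs (unique molecular identifiers, 1 per captured transcript end) from a droplet assay that reads the 3' end of transcripts. After the filter on cells described under processing, 18830 of 28426 cells remained, with 855 to 2185 cells and 1062871 to 3233159 UMIs per library and medians of 1153 to 1572 UMIs per cell. Summed over cells, the 10 microglia markers reached 19818 to 24455 CPM (UMIs of a gene per 1000000 UMIs of the library) and every one of the 10 was seen in every library, whereas 10 border macrophage markers reached 317 to 691 CPM. Most UMIs of the macrophage list came from Stab1 (5274 over the 12 libraries) and Ms4a6c (3427), against 56 to 746 for each of the others. Neutrophil markers (8 genes) were uneven, from 0 CPM in ENZ-INHIB replicate 3 to 4111 in DNC-NONE replicate 3. DNC-NONE replicate 1 and ENZ-NONE replicate 6 stood apart from their group in early response genes, with Jun at 726 and 3143 CPM. Of 18594 distinct barcodes, 236 were found in 2 libraries, with at most 12 shared by any pair.

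Small GTPases are molecular switches, active when bound to GTP and inactive when bound to GDP. Exchange factors (GEFs) load GTP, GTPase-activating proteins (GAPs) end the signal, and GDP dissociation inhibitors (GDIs) hold the inactive proteins in the cytosol. Rhoa, Rac1, Cdc42 and their relatives steer the actin cytoskeleton, and in microglia, cells with constantly moving processes, they serve surveillance, migration and phagocytosis. Rhob differs from Rhoa and Rhoc in its short-lived transcript and protein, its place on endosomes and its rapid induction by growth factors and stress. Gem belongs to the RGK group of Ras-related proteins, was first described as a gene induced by mitogens, and binds calcium channel beta subunits.

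On mouse build GRCm38, equivalent to mm10, with GENCODE M21 genes, Rhob (ENSMUSG00000054364) lies on chromosome 12 from 8497661 to 8500009, minus strand, and Gem (ENSMUSG00000028214) on chromosome 4 from 11704457 to 11714752, plus strand. Neither overlaps another annotated gene. Among the relatives, Rhoa overlaps 3 annotated genes, 1 of them, Gm37568, on its own strand. Rac1 overlaps 2 and Cdc42 overlaps 1, all on the other strand. Counts of these relatives could hold reads of such neighbours, for those on the other strand only if antisense reads were counted. The other 4 overlap none.

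RefSeq start-site windows (GRCm38.p6) matched 6 of the 9 genes, in 7 windows. The 250 bases before the start are shown for Rhob, the abundant member that differed, and for Cdc42, the relative with the smallest spread over the 12 libraries. Both lie wholly outside the annotated gene, at chr12:8500010-8500259 (minus strand) for Rhob and chr4:137357760-137358009 (minus strand) for Cdc42. They are written 5′ to 3′ on the gene's strand, and capitals mark CCAAT boxes on either strand.
Rhob: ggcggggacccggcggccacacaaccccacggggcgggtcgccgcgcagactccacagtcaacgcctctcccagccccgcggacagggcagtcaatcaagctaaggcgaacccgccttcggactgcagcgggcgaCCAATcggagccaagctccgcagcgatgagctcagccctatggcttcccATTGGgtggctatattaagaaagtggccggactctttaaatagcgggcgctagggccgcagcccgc
Cdc42: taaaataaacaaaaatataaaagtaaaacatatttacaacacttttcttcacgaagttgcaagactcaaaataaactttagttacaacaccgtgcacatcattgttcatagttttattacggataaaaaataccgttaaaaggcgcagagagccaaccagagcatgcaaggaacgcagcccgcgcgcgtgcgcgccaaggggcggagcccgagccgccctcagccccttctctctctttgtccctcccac

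The Rhob window held 2 CCAAT boxes, 1 on each strand, whose first bases lie 115 and 66 bases before the start. The letters CCAAT (or ATTGG on the other strand) occurred in 33.8% of 32851 windows of this length, and at least 2 of them in 10.1%. None of the 6 windows of the relatives held one. Both strands of each window were also searched for TGACGTCA (1.55% of windows), TGACG (17.8%), TGANTCA (6.75%), GAANNTTC (6.69%) and the CArG box (1.47%), and none of the 7 windows held any of these. TGACG is contained in TGACGTCA. The letters TATAAA (12.4% of windows) occurred in the Cdc42 window alone, and the GC box GGGCGG (32.7%) was found 1 time in the Rhob window and 2 times in that of Cdc42. A match is a description of letters, not of a bound site.

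Rhob was higher in ENZ-NONE than in every library of the other preparations. It stood at 784, 781 and 925 CPM in ENZ-NONE replicates 4, 5 and 6. In DNC-NONE it measured 455, 410 and 446 in replicates 1, 2 and 3, and in DNC-INHIB 485, 508 and 448 in replicates 4, 5 and 6. ENZ-INHIB replicates 1, 2 and 3 lay between, at 527, 584 and 562. The lowest ENZ-NONE library (781) was above the highest of the other 9 (584). Both Dounce groups overlapped each other, while the ENZ-INHIB libraries were all above the 6 Dounce libraries.

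Group means of Rhob were 830 ± 82.5 CPM in ENZ-NONE, 558 ± 28.4 in ENZ-INHIB, 481 ± 30.1 in DNC-INHIB and 437 ± 23.9 in DNC-NONE (SD, n = 3 each). Expressed as log2 fold changes, ENZ-NONE was higher by 0.97 (SE 0.10) than DNC-NONE, by 0.83 (SE 0.10) than DNC-INHIB and by 0.61 (SE 0.10) than ENZ-INHIB, which correspond to ratios of 1.957, 1.78 and 1.53. These 3 comparisons share the ENZ-NONE libraries. Within batch 1 of the labels, the 2 ENZ-NONE libraries averaged 783 CPM against 470 in the 4 others, and in batch 2 the single ENZ-NONE library had 925 against 510 in the 5 others.

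Gem was seen in few UMIs outside ENZ-NONE. Its UMIs numbered 39, 10 and 39 in ENZ-NONE replicates 4, 5 and 6. DNC-NONE libraries held 3, 4 and 2, those of DNC-INHIB 0, 3 and 5, and those of ENZ-INHIB 3, 2 and 2. In CPM, the ENZ-NONE libraries ran from 6.51 to 17.9, all above the 0 to 3.76 of the other 9, with ENZ-NONE replicate 5 nearest to them. In DNC-INHIB replicate 4 no Gem UMI was seen in 1544 cells, which by the limit of 3 counts over that number of cells allows a share of up to 0.194% of cells with a UMI.

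The group mean of Gem was 12.9 ± 5.82 CPM in ENZ-NONE, 2.02 ± 1.51 in DNC-NONE, 1.05 ± 0.491 in ENZ-INHIB and 0.896 ± 0.802 in DNC-INHIB (SD, n = 3 each). ENZ-NONE was higher on the log2 scale by 2.97 (SE 0.53), 3.71 (SE 0.52) and 3.71 (SE 0.54) than DNC-NONE, DNC-INHIB and ENZ-INHIB. Because these folds rest on 9, 8 and 7 UMIs in the lower groups, they are loosely set. The last was 2.69 with cells of at least 300 genes and 500 UMIs, and the gene passed the filter on low counts only through its ENZ-NONE libraries. Within batches, ENZ-NONE averaged 12.2 against 1.65 CPM in batch 1 and 14.3 against 1.07 in batch 2.

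**Figure D1:**
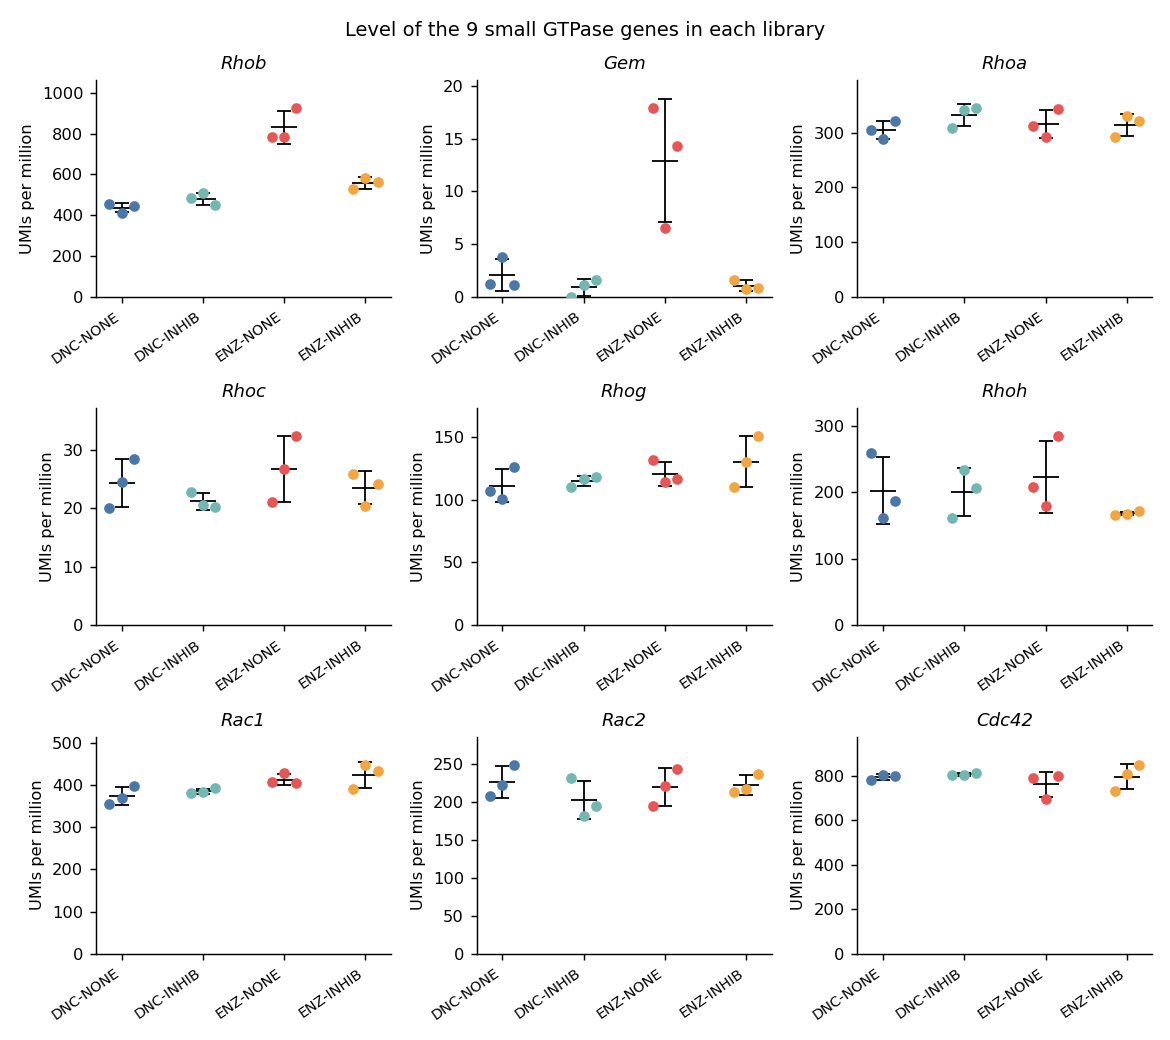
Level of each gene in CPM (vertical axes start at 0 and differ between panels) in the 12 libraries, by preparation. Points are libraries, and the dash and bars are the mean ± SD of n = 3. Rhob runs from 781 to 925 and Gem from 6.51 to 17.9 in ENZ-NONE, above their other 9 libraries, which none of the 7 relatives is.

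The relatives differed less, and none had its ENZ-NONE libraries above all other 9. Cdc42, which directs cell polarity and filopodia, ran from 696 to 847 CPM over the 12 libraries, a coefficient of variation of 4.96%, with ENZ-NONE at 761 ± 56.2 and the other 9 libraries at 798 ± 30.3. Rhoa, which drives stress fibers and contraction, ran from 288 to 345 (coefficient of variation 6.44%). Its ENZ-NONE libraries, at 312, 293 and 343, lay inside the range of the other 9. For comparison, the coefficient of variation over the 12 libraries was 28.6% for Rhob.

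Rac1 builds lamellipodia in most cells, and Rac2 is the blood cell form that also feeds the phagocyte oxidase. Rac1 averaged 414 ± 13.1 CPM in ENZ-NONE and 425 ± 30.03 in ENZ-INHIB, against 374 ± 21.5 in DNC-NONE and 386 ± 6.10 in DNC-INHIB. Rac2 averaged 219 ± 24.6, 222 ± 12.9, 226 ± 20.6 and 202 ± 25.6 in the same order (SD, n = 3 each). The groups overlapped for Rac2. For Rac1 the 3 ENZ-NONE libraries, at 405 to 429, were all above the 6 Dounce libraries, which reached 398, but inside the ENZ-INHIB range of 391 to 449.

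Rhog, which acts upstream of Rac, ran from 101 to 150 CPM, its highest value being in ENZ-INHIB replicate 3. Rhoc, a close relative of Rhoa tied to motility, was sparse, with 26 to 88 UMIs per library and 20.01 to 32.2 CPM. Rhoh, a blood cell member that does not hydrolyze GTP, varied most among the relatives (coefficient of variation 20.6%). Its top 2 libraries were ENZ-NONE replicate 6 at 284 and DNC-NONE replicate 1 at 260 CPM, the same libraries that stood apart in Jun. Whether these go together was not tested.

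Read as log2 fold changes of ENZ-NONE, the 7 relatives lay from -0.02 (Cdc42) to 0.22 (Rhoc) against DNC-NONE, from -0.04 (Cdc42) to 0.40 (Rhoc) against DNC-INHIB and from -0.08 (Rhog) to 0.46 (Rhoh) against ENZ-INHIB. The last falls to 0.22 (SE 0.16) without ENZ-NONE replicate 6, and the 0.40 of Rhoc falls to 0.18 (SE 0.20). A gene was called where its adjusted p was below 0.05 and its log2 fold change above 0.58 in size, by edgeR's quasi-likelihood test over 9884 genes, and all 9 genes were among those tested. Of the 9, Rhob and Gem were called higher in each of the 3 comparisons, as were 0.334% of all genes, and no relative was called. Against DNC-NONE 0.617% of all genes were called (0.425% higher), against DNC-INHIB 0.789% (0.486% higher) and against ENZ-INHIB 0.374%, all of these higher, and 0.718% of genes had all ENZ-NONE libraries above the other 9. Since these contrasts chose the genes, nothing is read from the counts. Rhob against ENZ-INHIB, close to the fold threshold, lost its call without ENZ-NONE replicate 6 (0.50) and without ENZ-INHIB replicate 1 (0.56), and Gem against DNC-NONE lost it without DNC-NONE replicate 1 (2.67), DNC-NONE replicate 3 (2.74) or ENZ-NONE replicate 4 (2.71).

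**Figure D2:**
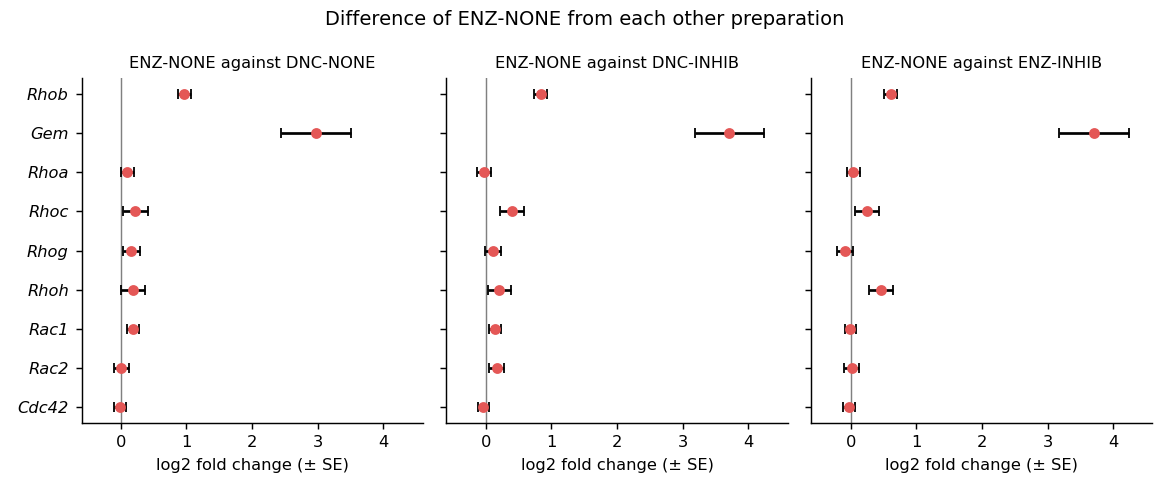
Log2 fold change of ENZ-NONE against each other preparation (horizontal axes) for the 9 genes, as fitted by edgeR, with bars of ± 1 SE. Rhob lies at 0.61 to 0.97 and Gem at 2.97 to 3.71, while the 7 relatives lie between -0.08 and 0.46.

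The comparisons without ENZ-NONE were not those that chose the genes, although they share control libraries with them. None of the 9 genes was called in DNC-NONE against DNC-INHIB, ENZ-INHIB against DNC-INHIB or ENZ-INHIB against DNC-NONE, where 0%, 0.152% and 0.101% of all genes were. Unadjusted p below 0.05 were found for Rhob in the last 2 of these and for Rac1 in the last, comparisons in which 833 and 1027 of 9884 genes had one, and DESeq2 called none of the 9. In the first, edgeR called 0 of 9884 genes, 467 had an unadjusted p below 0.05, and DESeq2 called 1. Rhob was higher in ENZ-INHIB by a log2 fold change of 0.36 (SE 0.10) than in DNC-NONE and by 0.22 (SE 0.10) than in DNC-INHIB, with edgeR adjusted p of 0.17 and 0.54. The intermediate level of Rhob in ENZ-INHIB was thus not separated from the Dounce groups by this test. For Gem the SE of these 3 comparisons was 0.81 to 1.06, too wide to place it.

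Counted by cells, the share with at least 1 Rhob UMI was 62.5% ± 3.85 in ENZ-NONE, 53.4% ± 4.65 in ENZ-INHIB, 47.3% ± 0.609 in DNC-INHIB and 41.5% ± 2.84 in DNC-NONE (SD, n = 3 each). Libraries differed in depth, so each cell was also thinned at random to 1000 UMIs, which left no kept cell out. The shares then were 49.9%, 50.6% and 55.0% in ENZ-NONE replicates 4, 5 and 6, and 33.8% to 42.2% in the other 9 libraries. Cells with 3 or more Rhob UMIs after thinning made up 7.57% ± 1.67 in ENZ-NONE, against 2.32% ± 0.492 in ENZ-INHIB, 1.77% ± 0.437 in DNC-INHIB and 1.34% ± 0.355 in DNC-NONE. Both the share of cells with the transcript and the number of transcripts in those cells were thus higher in ENZ-NONE. Droplet data carry free RNA that puts stray UMIs in cells, and no cell type known to lack these genes was set apart here, so that background was not measured.

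After the same thinning, Cdc42 was found in 48.4% to 57.1% of cells over the 12 libraries, Rac1 in 28.5% to 35.4% and Rhoa in 23.8% to 28.8%. Rac2 was found in 16.6% to 21.4%, Rhoh in 14.2% to 24.8%, Rhog in 8.89% to 13.98% and Rhoc in 1.79% to 2.92%. These shares depend on capture as well as on expression, so they rank no gene against another.

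Gem was a rare transcript even in ENZ-NONE. There, 57 of 4437 cells held 88 Gem UMIs, against 23 of 14393 cells holding 24 UMIs in the other 9 libraries. The share per library was 1.401% (95% exact binomial interval 0.880 to 2.11), 0.894% (0.429 to 1.64) and 1.43% (0.928 to 2.104) in ENZ-NONE replicates 4, 5 and 6, and 0% to 0.468% elsewhere. Of the 57 cells, 44 held a single UMI, 4 held 2 and 9 held 3 or more, with 7 in the richest cell, while outside ENZ-NONE no cell held more than 2.

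Among ENZ-NONE cells, Rhob was found more often in those with a Fos UMI than in those without. Fos encodes a subunit of the AP-1 transcription factor and is a standard immediate early gene. Among thinned ENZ-NONE cells, Rhob was found in 60.5% of the 205 cells with a Fos UMI and 48.3% of the 1365 without in replicate 4. In replicate 5 the shares were 62.0% of 158 and 48.7% of 961 cells, and in replicate 6 69.2% of 672 and 46.2% of 1076 cells. The share was higher in the cells with Fos in all 3 libraries. In the cells without a Fos UMI after thinning, which need not lack Fos, it was still above the 33.8% to 42.2% of all cells in the other 9 libraries.

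Split by Hspa1a, a heat shock gene, instead, the libraries did not go one way: Rhob was found in 55.3%, 47.9% and 60.7% of the cells with an Hspa1a UMI and 46.8%, 51.2% and 52.1% of those without.

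For Rhoa and Cdc42, split by Fos, the shares lay close together and differed in either direction. Rhoa was found in 27.3%, 25.3% and 28.3% of the cells with Fos and 24.2%, 25.5% and 27.8% of those without in replicates 4, 5 and 6. Cdc42 was found in 55.6%, 46.8% and 53.4% with Fos and 53.6%, 48.7% and 55.8% without. In DNC-NONE replicate 1, a Dounce library with 55 thinned cells holding Fos, Rhob was found in 30.9% of them (95% exact binomial interval 19.1 to 44.8) and in 36.4% of the others. This split was looked at after the values were known, cells of 1 library are not replicates, and the shares are a description. Rac1 is shown in the figure only, and Rhoc, Rhog, Rhoh and Rac2 are not described in the split by Fos. Whether a difference in that split is particular to Rhob was not tested.

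**Figure D3:**
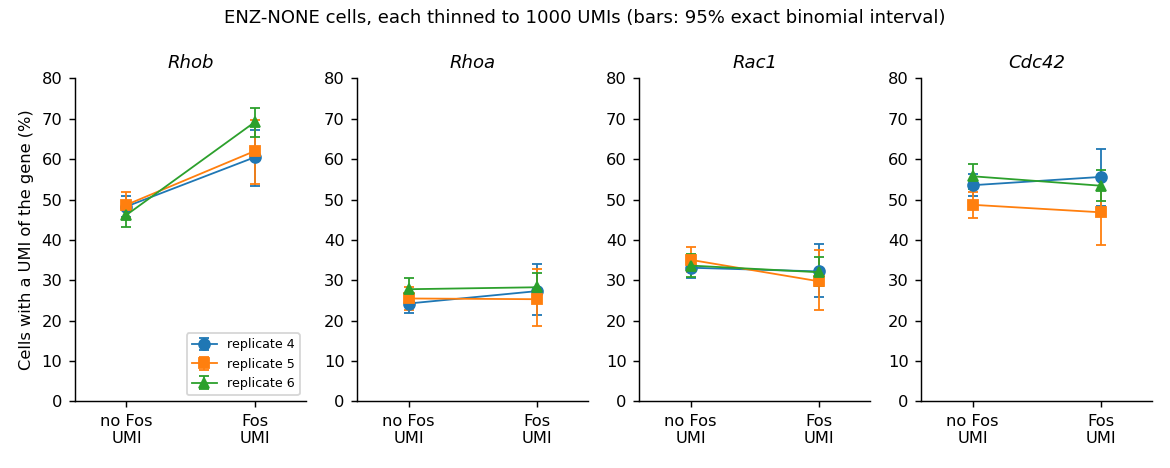
Share of ENZ-NONE cells with at least 1 UMI of Rhob, Rhoa, Rac1 or Cdc42 (vertical axis, percent) among cells without and with a Fos UMI, each cell thinned to 1000 UMIs. Lines are the 3 libraries and bars the 95% exact binomial interval. Rhob goes from 46.2% to 48.7% without Fos to 60.5% to 69.2% with Fos, and Rhoa goes from 24.2% to 27.8% without to 25.3% to 28.3% with.

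Cells with Gem were too few to place the other genes in them. After thinning, 18, 10 and 17 cells of ENZ-NONE replicates 4, 5 and 6 held Gem. Rhob was found in 12, 3 and 10 of these, and in 49.7%, 50.8% and 55.0% of the cells without Gem. In a fit of Gem-positive against Gem-negative cells with the library as a block, none of the 7 members that could be tested was called, where 0.547% of 1463 genes were, and Rhob had a log2 fold change of -0.05 (SE 0.29). On simulated data of this size the fit recovered 5.88% of 4-fold changes, with genes too sparse to test counted as missed. That rate is taken over genes of many levels and is not the power for Rhob. A difference in a sparse gene could easily be missed.

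A few sorted cells carried border macrophage markers, which allowed a comparison that did not choose the genes. Cells with at least 3 of 10 border macrophage markers, and more of these than of microglia markers, numbered 7 to 26 per library. They were set against cells with at least 3 microglia markers and at most 1 macrophage marker, 91.5% to 95.5% of each library, by edgeR with the library as a block. Rhob was lower in the macrophage-marker cells by a log2 fold change of -1.44 (SE 0.20, edgeR adjusted p = 5.26e-12) and Rhoh by -2.24 (SE 0.35, adjusted p = 3.59e-09). These were 2 of 8 members tested, while 18.5% of 6605 genes were called and 10.3% were called lower, and Gem was too sparse to test.

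The counts behind this were small. Rhob had 1 to 22 UMIs per library in the macrophage-marker cells, or 43.3 to 576 CPM, against 429 to 957 in the microglia-marker cells, and was lower in the macrophage-marker cells of each of the 12 libraries. Rhoh had 0 to 3 UMIs per library in them. Rac2 was higher by 0.57 (SE 0.20, adjusted p = 0.026), just under the fold threshold, and was called in 7 of 15 alternatives. Rac1 (-0.40, SE 0.19), Rhoc (-0.64, SE 0.67), Rhog (-0.10, SE 0.30), Rhoa (0.05, SE 0.19) and Cdc42 (0.10, SE 0.13) were not called.

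**Figure D4:**
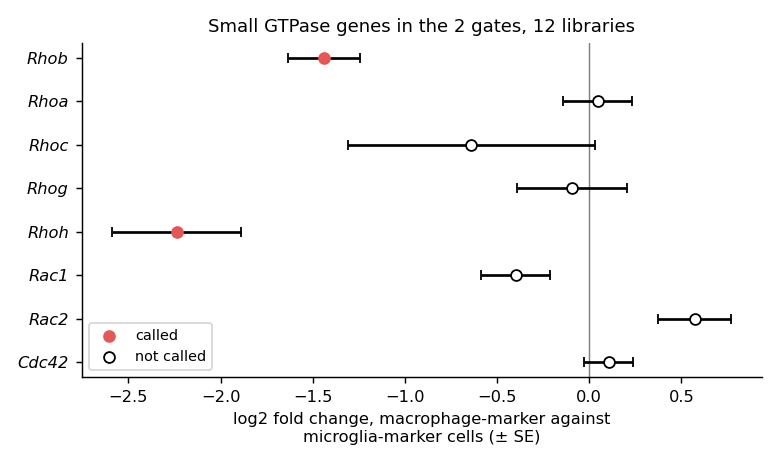
Log2 fold change of macrophage-marker cells against microglia-marker cells (horizontal axis) for the 8 members tested, over 12 libraries with the library as a block. Bars are ± 1 SE, filled points were called by edgeR. Rhob at -1.44 and Rhoh at -2.24 are lower in macrophage-marker cells, and Rac2 at 0.57 is not called.

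Whether the difference of ENZ-NONE was another size in the macrophage-marker cells was asked with an interaction term. Rhob had a log2 difference of 0.91 (SE 0.45, adjusted p = 0.91) and no member was called, where 0.0757% of 6605 genes were. The macrophage-marker cells of ENZ-NONE replicate 6 held 22 Rhob UMIs, more than any other library, and without that library the value was 0.34 (SE 0.67). On simulated data this fit recovered 6.86% of 4-fold changes, with genes too sparse to test counted as missed. That rate is taken over genes of many levels and is not the power for Rhob. Restricting the main comparison to microglia-marker cells left Rhob in ENZ-NONE at 794, 805 and 957 CPM in replicates 4, 5 and 6, above 429 to 591 in the other 9 libraries.

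Around the 9 genes, 305 others of the GTPase pathways were listed, and 225 of them passed the filter on low counts. None of the 33 exchange factors, 31 GAPs, 35 effectors or 2 GDIs tested was called in any of the 3 comparisons of ENZ-NONE. The same held for 17 Ras family GTPases, 38 actin filament genes, 8 prenylation enzymes and the 6 genes of the phagocyte NADPH oxidase, the complex Rac2 switches on. Of all 9884 genes, only 0.617%, 0.789% and 0.374% were called in these comparisons (DNC-NONE first, ENZ-INHIB last). Lists this short can therefore hold no call without differing from other genes, and their lack of calls does not show an unchanged pathway. Unadjusted p below 0.05 were found for 16, 17 and 15 of the 225 in the 3 comparisons, against 850, 944 and 516 of all 9884 genes. The median log2 fold change was 0.02 over the 225 against 0.00 over all genes in the comparison with DNC-NONE. Of the other RGK genes only Rrad could be tested, and it was not called, with log2 fold changes of 0.05 to 0.32. Cacnb2, the 1 calcium channel beta subunit tested, stayed within -0.10 to 0.18.

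The 1 gene called in these lists was Arl10, an Arf-like small GTPase. It stood at 56.0, 47.5 and 48.0 CPM in ENZ-NONE and at 80.4 to 103 in the 6 Dounce libraries, with 59.3 to 71.6 in ENZ-INHIB between them. It was lower in ENZ-NONE by a log2 fold change of -0.73 (SE 0.12, edgeR adjusted p = 0.0057) than in DNC-NONE, where 0.192% of all genes were called lower, and of -0.89 (SE 0.12, adjusted p = 0.00031) than in DNC-INHIB, where 0.304% were. Against ENZ-INHIB it was -0.34 (SE 0.12, adjusted p = 0.78). The remaining 49 of the 50 Rab, Arf and Ran GTPases tested were not called.

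Immediate early genes, which are transcribed within minutes of a stimulus, behaved otherwise. Of 18 tested, 15, 16 and 15 were called higher in ENZ-NONE against DNC-NONE, against DNC-INHIB and against ENZ-INHIB, and 0 lower, with median log2 fold changes of 2.29, 2.92 and 3.04. Of all genes, 0.425%, 0.486% and 0.374% were called higher in these comparisons. Several of the 18 are in the study's own activation lists, chosen on these samples, so the list is no independent evidence. The 5 with the largest mean fold changes were Fos, Dusp1, Fosb, Egr1 and Atf3. Dusp1, a phosphatase that ends MAP kinase signals, rose from 7.38 ± 6.89 CPM in DNC-NONE to 644 ± 484 in ENZ-NONE, and Fos from 13.6 ± 20.4 to 852 ± 780 (SD, n = 3). Single libraries, ENZ-NONE replicate 6 and DNC-NONE replicate 1, enlarged the means and SDs of their groups. For both genes every ENZ-NONE library was above every DNC-NONE library. ENZ-NONE replicates 4, 5 and 6 had Fos at 411, 392 and 1753 CPM and Dusp1 at 354, 376 and 1203, and DNC-NONE replicates 1, 2 and 3 had Fos at 37.2, 0.941 and 2.78 and Dusp1 at 15.2, 4.70 and 2.22. The log2 fold changes of Rhob (0.97, 0.83 and 0.61) were below the medians of the 18 and above the lowest of them (0.19, 0.04 and 0.45). They were also below those of the 5 named genes, but these were picked for large values. Rhob started from a level already seen in 41.5% of DNC-NONE cells.

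The tested genes whose levels ran most like those of Rhob over the 12 libraries were Sat1 (Pearson r of log2(CPM + 1), 0.96), Rgs1 (0.95), Kctd12 (0.95), Txnip (0.93) and Hspa1a (0.93). Sat1 is the enzyme that acetylates polyamines, and Hspa1a is an inducible heat shock protein. Like Rhob, these genes differ between ENZ-NONE and the rest, and all points share library depth and preparation, so the values are a description. For Gem the leading genes were Hist1h4i (0.91), Egr2 (0.88), Ccl3 (0.88), Hspa1b (0.87) and Jund (0.87). Reads of Hspa1a and Hspa1b, and of histone genes, can match near-identical copies, so these counts may be inexact. Gem and Rhob themselves had r = 0.75, and the relatives ran from -0.32 (Cdc42) to 0.55 (Rac1) with Rhob.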

How the data were processed

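The 12 matrices the authors deposited hold unnormalized UMI counts, produced by Cell Ranger 3.0.0 (submitters' processing notes) on mm10. How antisense reads were handled is not given in the sources used here. Cells under 500 genes, under 1000 UMIs or over 10% mitochondrial UMIs were dropped. No doublets were removed in the main analysis. UMIs were summed per library and tested with edgeR 4.0.16 (TMM scaling, filterByExpr, quasi-likelihood F-test, Benjamini-Hochberg adjustment over 9884 genes) in one fit of 12 libraries. Gate and Gem fits used a library block on genes with at least 5 expected UMIs in the smaller class, scaled on those with at least 30. The fits were tested on simulated data. At 3 libraries per group, 73.5% of 2-fold and 100% of 4-fold changes were recovered for ENZ-NONE against DNC-NONE. The simulation gave every gene the same spread between replicates and changed only genes above a count floor that Gem does not reach. Genes left untested were scored as missed, and the rates hold for that setting. Intervals are exact Clopper-Pearson, for counting error only. DESeq2 1.42.0 was an alternative. Named genes were the 9 members, up to 5 called genes per list by mean fold change, and the 5 genes most correlated with Rhob and with Gem. Jun, Rrad and Cacnb2 were named after their values were seen. Libraries are separate animals. The members and lists were chosen with earlier results of these data known.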

Additional observations from a re-analysis of the deposited data

How the results depend on the processing

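Because the ENZ-NONE contrasts chose Rhob and Gem, and the relatives for being steady, the counts of their calls describe the settings and are no support. The log2 fold changes of Rhob and Gem against the 3 other preparations stayed above 0 in all 77 alternative values, and 72 of these were called. The exceptions among the 77 are the 5 single-library omissions named above. Gem had fewer values than Rhob in each comparison, 12, 13 and 12 beside 13, 14 and 13 (DNC-NONE first, ENZ-INHIB last). A setting that gave no value for Gem is not among the 77, so the count says nothing about Gem there. Gem against ENZ-INHIB moved to 2.69 under the looser cell filter (at least 300 genes and 500 UMIs). No relative was called in 280 alternative values. Thinning changed the excess of cells with a UMI in ENZ-NONE from 15.1 to 13.7 percentage points for Rhob and from 1.07 to 0.894 for Gem.

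Among the pathway genes, dropping the low-count filter gave 3 calls against DNC-NONE (Arl10, Cdc42ep3 and Cybb), 2 against DNC-INHIB, 1 against ENZ-INHIB, 1 for DNC-NONE against DNC-INHIB, and 4 for ENZ-INHIB against DNC-NONE. The looser cell filter gave 1 call for ENZ-INHIB against DNC-INHIB, and DESeq2 1 for ENZ-INHIB against DNC-NONE. Leaving out single libraries gave 1 to 2 calls for ENZ-NONE against DNC-NONE (2 without ENZ-NONE replicate 6), 0 to 1 for ENZ-INHIB against DNC-INHIB (1 without DNC-INHIB replicate 4) and 0 to 1 for ENZ-INHIB against DNC-NONE (1 without DNC-NONE replicate 1). The cause was not tested. Rac2 in the macrophage-marker cells passed the threshold at 2 or more macrophage markers (0.91) and without 6 single libraries, where it was 0.58 to 0.65.

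Replicate numbers are shared by ENZ-NONE and DNC-INHIB and by ENZ-INHIB and DNC-NONE, but same-numbered libraries did not deviate together (correlations of 0.10, -0.02 and 0.15, and of -0.11, -0.06 and 0.00). With the replicate block, calls over all genes went from 78 to 95 and from 10 to 70, and pathway calls in the second stood at 1 (Gsn). Over all genes the calls against DNC-NONE, against DNC-INHIB and against ENZ-INHIB went from 61, 78 and 37 to 203, 209 and 142 without the low-count filter, and the other 3 comparisons from 0, 15 and 10 to 86, 98 and 215. DESeq2 gave 53, 68, 40, 1, 9 and 19. Few Gem UMIs and few macrophage-marker cells limit those results.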
